A study of Mus musculus with 11 samples.

Results

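Aquaporins are membrane channels that let water, and in some members glycerol or hydrogen peroxide, cross the cell membrane along its gradient. The colonic epithelium takes up most of the water that reaches the large bowel, following the salt that surface cells absorb, and secretes fluid where chloride leaves the crypts. The 6 genes described here, Aqp1, Aqp3, Aqp4, Aqp7, Aqp8 and Aqp11, were taken by symbol from a read count table of 52550 genes. They were compared in colonic epithelial cells of 11 mice, 5 of which had been fed a diet with 7% cellulose as its only fiber (CD) and 6 a fiber-free diet (FFD). All 11 were RAG1-deficient C57BL/6 mice (RAG KO), a strain that cannot form T and B cells, and all had the same course: 4 weeks on the diet and then 1.5% dextran sodium sulfate (DSS), an agent that injures the colonic epithelium, in the drinking water for 5 days. No mouse without DSS and no mouse with T and B cells was among the samples, so every value below is from the DSS-treated RAG KO colon. The study reported that RAG KO mice on CD were more resistant to this colitis than those on FFD. Severity by mouse was not among the values used here, and its part in the differences was not tested. The question was whether dietary cellulose altered these channels in the injured epithelium.

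The members fall into 3 kinds. Aqp1, Aqp4 and Aqp8 are water channels, and Aqp8 also conducts hydrogen peroxide and ammonia. Aqp3 and Aqp7 are aquaglyceroporins, which carry glycerol as well as water, and Aqp7 is known as the glycerol exit of fat cells. Aqp11 is a distant member that resides largely inside the cell. Aqp4 is classically found on the basolateral membrane of surface epithelial cells of the colon, and Aqp1 on endothelium and red blood cells.

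Aquaporins carry a repeated signature of asparagine, proline and a small residue, usually alanine, that lines the pore. The coding sequences of the members below were read from GENCODE M21 transcripts (GRCm38) to show how the signature departs from the usual form in Aqp7 and Aqp11. Capitals mark the 3 signature codons, in frame, with 9 bases on each side, and the codon number is counted from the start codon as 1. The search asked for AACCCN or AATCCN followed by GCN, TCN, TGC or TGT.
Aqp1, codon 76: gctcacctcAACCCTGCGgtcacactg
Aqp1, codon 192: tgcggtatcAACCCTGCCcggtcattt
Aqp8, codon 92: ggacacttcAACCCTGCTgtgtcgctg
Aqp8, codon 210: gcctgcatgAACCCTGCTcgtgccttt
Aqp3, codon 83: gcccacttgAACCCCGCTgtgaccttc
Aqp3, codon 215: tatgccgtcAACCCTGCCcgtgacttt
Aqp7, codon 211: tatgcaatcAACCCATCCcgtgacctg
Aqp11, codon 99: acagctagcAACCCGTGCggcgtgatg
Aqp11, codon 216: gcattgtttAACCCAGCGctggcactt
In Aqp1, Aqp8 and Aqp3 both matches end in an alanine codon. The first match of Aqp11 ends in a cysteine codon, and the single match of Aqp7 ends in a serine codon. The search required a proline codon in the middle, so a further signature of Aqp7 without it would not have been found. The coding sequences were 807 bases long in Aqp1, 783 in Aqp8, 876 in Aqp3, 909 in Aqp7 and 813 in Aqp11.

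The genes lie apart from each other on the GRCm38 build except for Aqp3 and Aqp7, which are neighbours on the minus strand of chromosome 4 at 41092722 to 41098183 and 41033074 to 41048139. Aqp1 lies on chromosome 6 at 55336432 to 55348555 on the plus strand. Aqp8 at 123462291 to 123468004 (plus strand) and Aqp11 at 97724006 to 97738289 (minus strand) are both on chromosome 7, and Aqp4 occupies 15389496 to 15410982 on the minus strand of chromosome 18. No exon of a member overlapped an exon of another gene in the GENCODE M21 annotation.

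Libraries held 10374154 to 28588266 counts, the fewest in FFD mouse 4. The tissue label was checked on markers. The summed level of 10 epithelial genes was 14340.3 to 17105 in CD, as counts per 1000000 normalized counts (CPM), and 16699.6 to 21417 in FFD, whereas 10 T and B cell genes reached at most 2.70 CPM. Rag1 itself had 8 to 40 counts per mouse. Of the 10 epithelial genes, 7 passed the test as higher in FFD and none as lower. Among all 15044 genes tested, 18.2% were higher and 18.6% lower. Surface colonocyte genes were higher while crypt base and dividing cell genes were lower in FFD, as given beside the results they accompany. Some markers of other cells were also higher in FFD. The summed level of neutrophil genes was 26.7 to 73 CPM in CD and 73.6 to 286 in FFD (3 of 5 tested higher, none lower). Most of it was Ly6g (mean 33.5 and 153 CPM) and Ltf (4.2 and 26.7). Both passed as higher, as did S100a8 (0.877 and 2.46), whereas Csf3r and S100a9 did not pass. Mpo and Elane had 9 and 7 counts over all mice. Macrophage and monocyte genes summed to 257 to 333 and 367 to 519 CPM (4 of 13 higher, none lower). Ctss (184 and 312 CPM) and Cd14 (87.2 and 114) held most of that sum. Both passed as higher, as did Mrc1 (1.4 and 4.11) and C1qb (0.891 and 1.62). The 9 that did not pass included Cd68, Csf1r and Adgre1. Goblet cell genes summed to 5888 to 10522 and 11765 to 17711 CPM (5 of 12 higher, 2 lower). The part of these markers in the aquaporin differences was not tested. The title number is 1 in every CD library and 2 in every FFD library, so that anything that followed it cannot be told apart from diet.

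Aqp4 was by far the most abundant member, and it was higher in FFD than in CD mice. Aqp1 was lower in FFD, Aqp8 and Aqp11 did not pass the test, and Aqp3 and Aqp7 were barely detected. Of the 4 members above the expression filter, 1 was higher and 1 lower, where 36.8% of the 15044 genes tested passed in either direction, 18.2% as higher and 18.6% as lower in FFD. None of the 4 had values that did not overlap between the diets, as 18.5% of all genes tested had.

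Levels of different genes were compared per kilobase of exon. On this scale the order was Aqp4, Aqp8, Aqp1, Aqp11, Aqp7 and Aqp3 in both diets. Aqp4 stood at 120.1 ± 23 CPM per kilobase in CD and 206 ± 54.1 in FFD (SD, n = 5 and 6). Aqp8 had a level per kilobase of 28.1 ± 10.6 in CD and 28.1 ± 11.7 in FFD. Aqp1 had 15 ± 5.46 and 6.44 ± 3.4 CPM per kilobase, and Aqp11 had 1.75 ± 0.162 and 1.46 ± 0.245. The steps between Aqp4 and Aqp8 and between Aqp1 and Aqp11 held in every mouse, and the ranges of these neighbours did not overlap. The step from Aqp1 to Aqp11 depended on the length used for Aqp11, which has 9418 bases of exon but 3737 in its longest coding transcript. With the lengths of the longest coding transcripts, an alternative chosen after seeing the data, the mean of Aqp1 was 3.4 times that of Aqp11 in CD and 1.75 times in FFD, instead of 8.56 and 4.41. Aqp1 was then still above Aqp11 in all 11 mice, but the ranges of the 6 FFD mice overlapped (3.64 to 12.2 for Aqp1 and 2.54 to 4.12 for Aqp11). Aqp8 was above Aqp1 in 4 of 5 CD and 6 of 6 FFD mice, but their ranges overlapped in both diets. Aqp7 and Aqp3 were also not separated beyond their spread.

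Aqp4 alone made up 72.5 ± 8.37% of the summed level per kilobase of the 6 members in CD and 84.4 ± 6.78% in FFD. Aqp8 held 17.1 ± 6.32% and 12.2 ± 6.01% of that sum, and Aqp1 9.29 ± 3.68% and 2.74 ± 1.4%. Within the whole transcriptome, where levels are not corrected for length, the mean CPM of Aqp4 ranked 72 among the 15044 genes tested, while Aqp8 ranked 4535, Aqp1 6315 and Aqp11 8152.

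**Figure D1:**
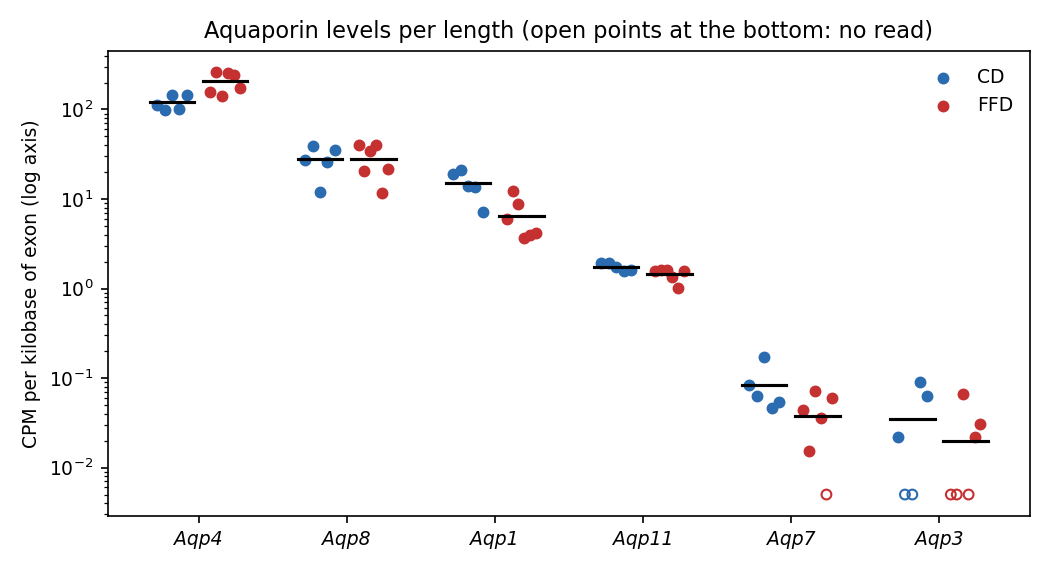
Level of the 6 aquaporins in each mouse as CPM per kilobase of exon on a log axis, with mice as points colored by diet, horizontal lines at the means and open points at the bottom for mice with 0 counts. Aqp4 lies above every other member in all 11 mice, and the levels of Aqp7 and Aqp3 are below those of Aqp11 in all 11.

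Aqp4, the dominant water channel, was the member that rose. Its CPM in the 5 CD mice was 689, 614, 899, 634 and 907. In the 6 FFD mice it ranged from 892 to 1642 with a median of 1299.9. Thus 5 of 6 FFD mice lay above every CD mouse, and FFD mouse 3, at 892, lay within the CD range. The mean was 748 ± 143 CPM in CD and 1285 ± 337 in FFD (SD, n = 5 and 6), a 1.72-fold difference (log2 fold change 0.78, SE 0.18, 95% interval 0.37 to 1.19). The adjusted p was 0.0059 with the edgeR quasi-likelihood test and Benjamini-Hochberg adjustment over all genes tested. Each library held at least 15757 counts of Aqp4, so counting error was small beside the spread between mice.

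Surface colonocyte markers moved with Aqp4. Of 16 such genes, 10 (62.5%) were higher and none lower in FFD, against 18.2% and 18.6% of all genes tested. The summed level of the 16 was 8668 to 12985 CPM in CD and 15404 to 26517 in FFD. Within a diet the order of the mice was not the same for both. FFD mouse 3 was lowest of its diet for both, at 892 CPM of Aqp4 and 15404 CPM of colonocyte genes. FFD mouse 6 had the highest colonocyte sum, 26517 CPM, with 1069.8 CPM of Aqp4, and CD mouse 3 had the lowest, 8668 CPM, with 899 CPM of Aqp4. Glia, in which Aqp4 is well known in the brain, were looked at through 10 glia and neuron genes, whose summed level was 4.27 to 5.81 CPM in CD and 6.03 to 14.8 in FFD. Of those tested, Ret, a receptor gene of enteric neurons, was higher in FFD (1323 counts over all mice, log2 fold change 1.2, adjusted p = 0.005 with the edgeR quasi-likelihood test), and Elavl4 and Uchl1 did not pass. The 6 below the filter had 2 (Sox10) to 46 (S100b) counts over all 11 mice, against 255069 of Aqp4. In bulk samples such as these, a change in the number of cells of a type and a change in RNA per cell cannot be told apart, and the part of the colonocyte and nerve genes in the Aqp4 difference was not tested.

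Aqp1 was the member that fell. Its CPM in the 5 CD mice was 50.3, 55.2, 36.9, 35.5 and 18.6, whereas the FFD mice ranged from 9.57 to 32 with a median of 13.2. All 6 FFD mice were below the CD median and 4 of 6 were below the lowest CD mouse. CD mouse 5 lay within the FFD range. Mean levels were 39.3 ± 14.3 CPM in CD and 16.9 ± 8.93 in FFD, 2.3-fold lower in FFD (log2 fold change -1.20, SE 0.33, 95% interval -1.95 to -0.45, adjusted p = 0.013 with the edgeR quasi-likelihood test).

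Markers of the cells classically known for Aqp1 were at low levels. Of 12 endothelial genes 5 were tested and none passed in either direction, with a median log2 fold change of -0.51, the same direction as Aqp1. Their summed level was 6.91 to 9.72 CPM in CD and 4.89 to 7.01 in FFD. This was lower than the Aqp1 level in every mouse of both diets, as CPM not corrected for length. The log2 fold change was -0.91 for Esam, -0.66 for Egfl7, -0.51 for Vwf, -0.18 for Pecam1 and 0.08 for Tek. Counts over all mice ran from 116 (Esam) to 665 (Vwf) in these 5, and from 1 (Cldn5) to 60 (Plvap) in the 7 below the filter, among them the endothelial cadherin gene Cdh5 with 33. Red blood cell genes summed to 1.63 to 3.68 CPM in CD and 0.907 to 8.45 in FFD, where 1 of 2 tested was higher. Crypt base and dividing cell markers moved with Aqp1: 11 of 15 (73.3%) were lower and none higher in FFD, against 18.6% and 18.2% of all genes tested. The summed level of the 15 was 1336 to 1781 CPM in CD and 699 to 1318 in FFD. The part of these markers in the Aqp1 difference was not tested.

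Aqp8 showed no difference between diets that the spread between mice would allow to be seen. Its CPM in the 5 CD mice was 43, 62.2, 19.1, 41.2 and 56.3, and the FFD mice ranged from 18.7 to 63.8 with a median of 44.3. The diets overlapped nearly in full. Both means were 44.4 CPM, with an SD of 16.7 in CD and 18.5 in FFD. The log2 fold change was -0.01 (SE 0.32, adjusted p = 0.99 with the edgeR quasi-likelihood test). The 95% interval of -0.74 to 0.72 spans from 0.6-fold to 1.65-fold, and changes of that size were not detectable here. The spread was wide within each diet, with the highest mouse 3.26-fold above the lowest in CD and 3.42-fold in FFD. The coefficient of variation was 37.6% in CD and 41.7% in FFD, against 9.24% and 16.8% for Aqp11.

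Posterior Hox genes, which mark the position along the colon, were looked at as a measure of the segment sampled. Their summed level was 202 to 305 CPM in CD and 179 to 330.0 in FFD. Of 8 tested, 1 (12.5%), Hoxa13, passed as higher in FFD and none as lower. Among all genes tested, 18.2% were higher and 18.6% lower. In FFD mice 1 to 6 the Hox sum was 321, 194, 330.0, 291, 251 and 179 CPM, where Aqp8 was 63.8, 32.6, 54.1, 62.9, 18.7 and 34.5 CPM. The 3 FFD mice with the highest Hox sums (1, 3 and 4) were also the 3 with the highest Aqp8. In CD mice 1 to 5 the Hox sum was 202, 305, 255, 246 and 266 CPM, and CD mouse 2 was highest for both, whereas CD mouse 3 was lowest for Aqp8 and CD mouse 1 for the Hox sum. The part of the sampled segment in the spread of Aqp8 was not tested.

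Aqp11, the intracellular member, varied least of the 4 within each diet. The CPM of Aqp11 in CD mice was 18, 18.1, 16.2, 14.8 and 15.3, and in FFD mice it ranged from 9.49 to 15.4 with a median of 14.9. All 6 FFD mice were below the CD median and 3 of 6 were below the lowest CD mouse. The means were 16.5 ± 1.52 CPM in CD and 13.8 ± 2.31 in FFD, and the log2 fold change of -0.26 (SE 0.12, 95% interval -0.53 to 0.02) did not pass the test, with an adjusted p of 0.11 from the edgeR quasi-likelihood test. When libraries were scaled to their total counts without TMM factors, the log2 fold change was -0.40 and passed with an adjusted p of 0.031. That scaling moved the median log2 fold change of all genes tested from -0.03 to -0.19.

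**Figure D2:**
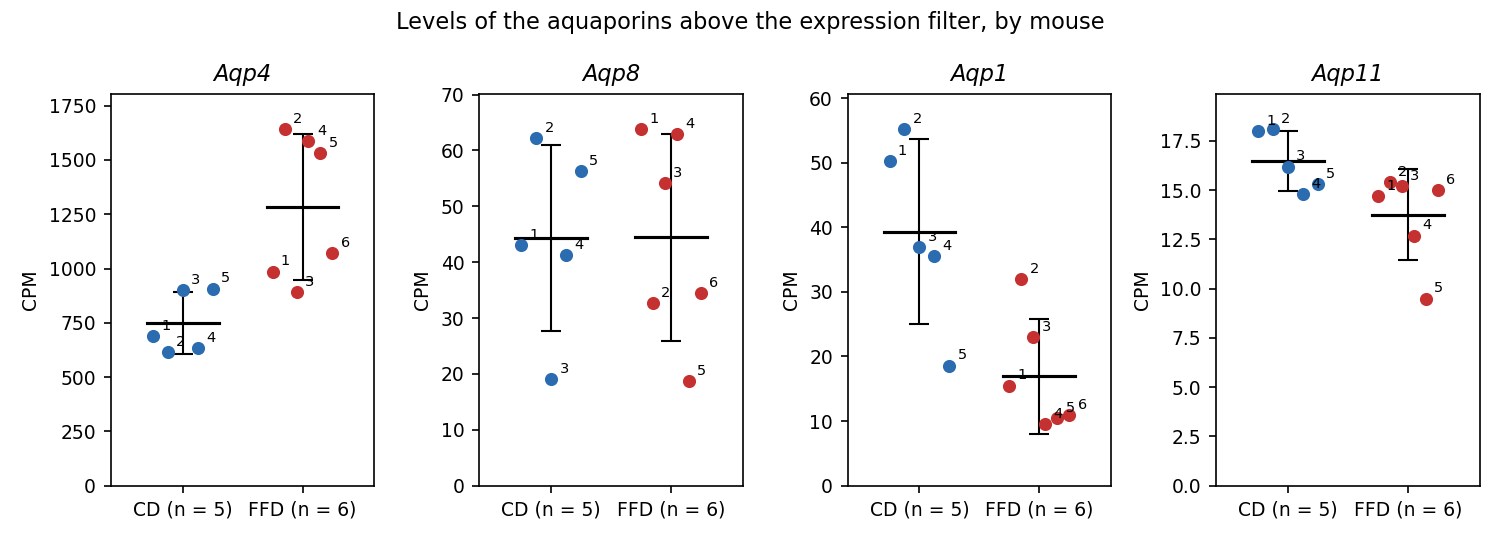
CPM of the 4 aquaporins above the filter in each CD and FFD mouse on linear axes from 0, with 1 panel per gene, numbered points for mice and lines for the mean with its SD. FFD mice lie higher for Aqp4 (5 of 6 above all CD mice) and lower for Aqp1 (4 of 6 below all CD mice), and the diets overlap for Aqp8 and Aqp11.

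The calls of Aqp4 and Aqp1 were also followed through 21 other ways of processing the counts, among them each mouse left out in turn. Both passed in all 21, and Aqp8 in none.

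**Figure D3:**
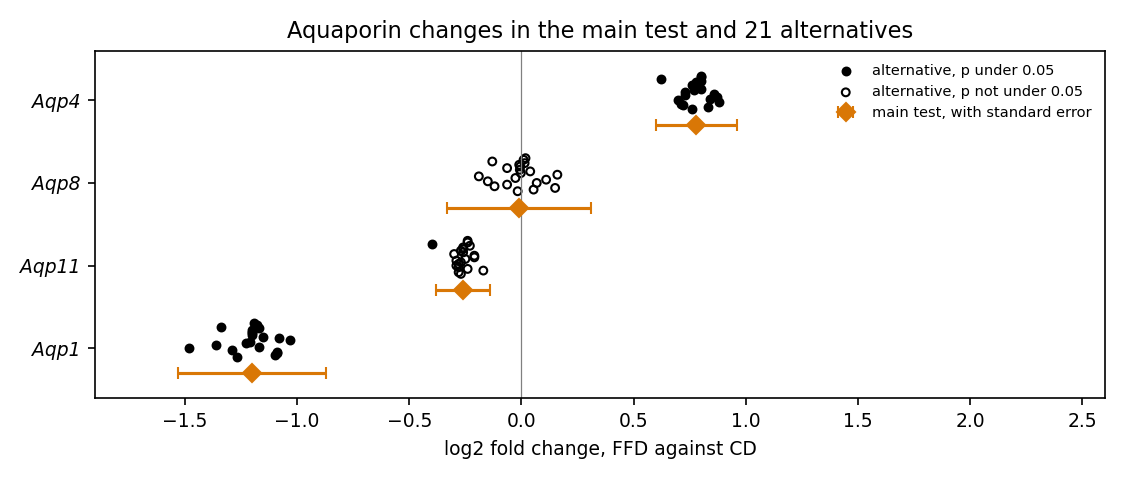
Log2 fold change in FFD against CD of the 4 aquaporins above the filter, with the main test and its standard error as diamonds and 21 alternatives as points, filled where p was under 0.05 (adjusted over all genes tested, except for the exact permutation test). Aqp4 stays between 0.62 and 0.88 and Aqp1 between -1.48 and -1.03, whereas the values of Aqp8 lie on both sides of 0.

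The glycerol-conducting members were close to undetected. Aqp7 had 6, 5, 11, 4 and 4 counts in the 5 CD libraries and 0 to 5 in the 6 FFD libraries, 30 and 13 counts in sum. Aqp3 had 1, 0, 0, 5 and 3 counts in CD and 0 to 3 in FFD, 9 and 5 in sum. Both fell below the filter on low counts, so no test was made in the main comparison. Fitted without that filter, the log2 fold change was -1.11 for Aqp7 (adjusted p = 0.28) and -0.67 for Aqp3 (adjusted p = 0.69) with the edgeR quasi-likelihood test, so a difference was not detectable at this depth. Of 9 adipocyte genes, whose summed level was 73.3 to 89 CPM in CD and 76.8 to 91.3 in FFD, 3 passed the filter. Pparg, with 19335 counts, held most of that sum, Lpl had 1234 counts, and Cidec, with 507, was higher in FFD (log2 fold change 1.12, adjusted p = 0.0072 with the edgeR quasi-likelihood test). The other 6 had 1 to 11 counts over all mice, with 1 each for the fat cell genes Adipoq and Fabp4.

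The rest of the family was examined for completeness. Aqp9, a glycerol and urea channel, had 80 counts over all mice and Aqp12 had 26. Mip, the lens aquaporin, had 2 counts, both in CD mouse 2. Aqp2, Aqp5 and Aqp6 had 0 counts in all 11 libraries, and a count of 0 among 256458449 counts allows up to 0.012 CPM on the basis of 3 counts, for counting error only.

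The unequal movement of the members was also visible within each mouse, where a ratio needs no scaling between libraries. The log2 ratio of Aqp4 to Aqp1 ranged from 3.47 to 5.60 in CD and from 5.27 to 7.36 in FFD, with means of 4.32 ± 0.83 and 6.35 ± 0.84. As a linear ratio this was 11.1 to 48.5 in CD and 38.7 to 164 in FFD, taken from log2 CPM with a prior count of 2. CD mouse 5 and FFD mouse 3 made the ranges overlap. The log2 ratio of Aqp4 to Aqp11 was 5.08 to 5.88 in CD and 5.87 to 7.32 in FFD, so that its ranges met at a single pair of mice, CD mouse 5 and FFD mouse 3. The Aqp1 to Aqp11 ratio had a mean log2 value of 1.16 ± 0.52 in CD and 0.17 ± 0.58 in FFD. The log2 ratio of Aqp8 to Aqp1 ranged from -0.95 to 1.59 in CD and 0.02 to 2.70 in FFD, and that of Aqp8 to Aqp11 from 0.23 to 1.88 and 0.97 to 2.30, both overlapping widely.

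**Figure D4:**
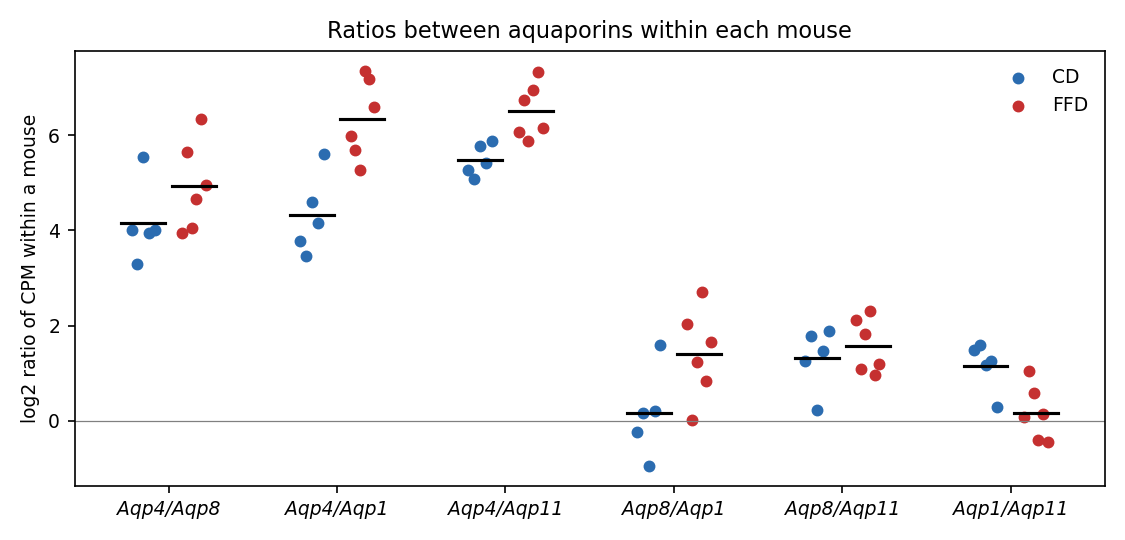
Log2 ratio of CPM between pairs of aquaporins in each mouse, with mice as points colored by diet and lines at the means. The Aqp4 to Aqp1 ratio runs from 3.47 to 5.60 in CD and from 5.27 to 7.36 in FFD, and the ranges of the diets overlap for all 6 ratios.

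Genes whose pattern over the 11 mice was most like each member were found by the SD of the difference in log2 CPM, over 13166 genes, and are given as a description. For Aqp4, whose own log2 CPM had an SD of 0.51, they were Zdhhc13 (0.16), St3gal4 (0.18) and Rab8b (0.18). The nearest to Aqp1 were Cps1 (0.29), Dach1 (0.32) and Lgr5 (0.35), a marker of crypt base stem cells. Those of Aqp8 were further away, Pyy (0.36), Klhdc7a (0.39) and Prss53 (0.39), and those of Aqp11 were Faah (0.10), Rgl2 (0.11) and Wdr45 (0.11). The log2 fold change of the genes nearest to Aqp4 was 0.85, 0.76 and 0.71, and that of the genes nearest to Aqp1 was -1.07, -0.95 and -1.37. Because the genes were picked over the mice of both diets, fold changes near that of the member follow from the choice.

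The channels act beside the transporters that set up the salt gradient. Of 24 genes of sodium and chloride absorption, 18 were higher and 2 lower in FFD and 4 did not pass, that is 75% and 8.33%, with a median log2 fold change of 0.50 against -0.03 over all genes tested. Slc26a3, the chloride and bicarbonate exchanger of surface cells, rose from 190.0 ± 31.8 to 482 ± 136 CPM (log2 fold change 1.34, adjusted p = 0.0011 with the edgeR quasi-likelihood test). Fxyd4, a regulator of the sodium pump, had a log2 fold change of 1.46, the chloride channel Clcn2 had 0.88 and Slc5a8, which takes up short-chain fatty acids with sodium, had 0.51. The lower genes were Fxyd3 (log2 fold change -0.63), another pump regulator, and Slc9a3r2 (-0.82), a scaffold of the sodium and proton exchanger. Slc26a3 is also counted among the surface colonocyte genes and Fxyd3 among the goblet cell genes, so these lists are not separate. Here too, cell number and RNA per cell cannot be told apart, and the part of the surface colonocyte genes was not tested.

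Of 18 genes of chloride and potassium secretion, 4 were higher and 5 lower and 9 did not pass. The shares were 22.2% and 27.8%, near the 18.2% and 18.6% of all genes tested. The median log2 fold change was -0.06. The lower genes were the basolateral potassium channels Kcnq1 (-0.64) and Kcnn4 (-0.96), the channel subunit Kcne3 (-0.54), the chloride entry transporter Slc12a2 (-0.58) and the chloride channel Cftr (-0.47). The higher genes were Clca4a (1.81), Clca1 (1.49), the receptor gene Vipr1 (0.38) for vasoactive intestinal peptide and the guanylin receptor gene Gucy2c (0.22). Clca1 is a product of goblet cells and is also counted among their genes, as Slc12a2 is among the crypt base and dividing cell genes. Reads of Clca4a may be shared with near-identical copies of the family. The call of Gucy2c was lost when CD mouse 4 or FFD mouse 2, 4 or 6 was left out, without TMM factors and without the filter on low counts.

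For the glycerol channels, 21 genes of glycerol metabolism were tested, of which 9 were higher and 2 lower in FFD. This was 42.9% and 9.52%, against 18.2% and 18.6% of all genes tested. The median log2 fold change was 0.21. Dgat2, which makes triglyceride, had a log2 fold change of 1.09 and glycerol kinase (Gk) 1.05. Plin2, a coat protein of lipid droplets, had 0.57 and Gpd2, a mitochondrial glycerol phosphate dehydrogenase, 0.60. The lower genes were Gpam (-0.55), which starts the synthesis of glycerolipids, and Gpd1l (-0.25). The call of Gpd1l was lost without any one of CD mice 1, 2, 3 and 4 or FFD mice 1, 2, 4, 5 and 6, which left 1 lower gene. Pdp1, among the 9 higher genes, is a phosphatase of pyruvate dehydrogenase and lies outside glycerol metabolism.

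Of 16 osmotic stress genes tested, 4 were higher and 2 lower, with a median log2 fold change of 0.13. The shares were 25% and 12.5%, near the 18.2% and 18.6% of all genes tested. Slc5a3, which imports the osmolyte myo-inositol, had a log2 fold change of 0.86, the volume-regulated anion channel gene Lrrc8a 0.33 and Pnpla6, which makes glycerophosphocholine, 0.22. Without TMM factors Lrrc8a and Pnpla6 did not pass. Akr1b3, which makes sorbitol, had -0.63 and the kinase gene Stk39 -0.23. No lower gene was left without CD mouse 2, 3 or 4 or FFD mouse 2 or 5, and 2 higher genes were left without CD mouse 2, 3 or 4 or FFD mouse 2.

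Of 21 genes of hydrogen peroxide sources and sinks, 6 were higher and 7 lower, with a median log2 fold change of -0.06. The shares were 28.6% and 33.3%, against 18.2% and 18.6% of all genes tested. The higher genes were the peroxide-making oxidase Duox2 (1.08) with its maturation factor Duoxa2 (0.85), the peroxiredoxins Prdx6 (0.99) and Prdx5 (0.47), the oxidase organizer Noxo1 (0.39) and thioredoxin, Txn1 (0.31). The call of Txn1 was lost when any one of CD mice 1, 2 and 3 or FFD mice 1, 2, 5 and 6 was left out, without TMM factors and without the filter on low counts. Among the lower genes were the oxidase Nox1 (-1.99) and the peroxiredoxin Prdx4 (-1.05).

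Aqp4 is held at the membrane in other tissues by a dystrophin complex. Of 7 such genes tested, 0 were higher and 3 (42.9%) lower while Aqp4 rose, where 18.6% of all genes tested were lower. The 3 lower genes were the dystrobrevin gene Dtnb (log2 fold change -0.49), utrophin, Utrn (-0.32), and dystrophin, Dmd (-0.23). The median of the list was -0.11. Leaving out CD mouse 3 took all 3 calls away, as did leaving out FFD mouse 5 or 6. A single call was left when CD mouse 1 or 4 or FFD mouse 1 or 4 was left out. Dag1, the dystroglycan gene, had 256 ± 9.87 CPM in CD and 255 ± 15.5 in FFD.

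**Figure D5:**
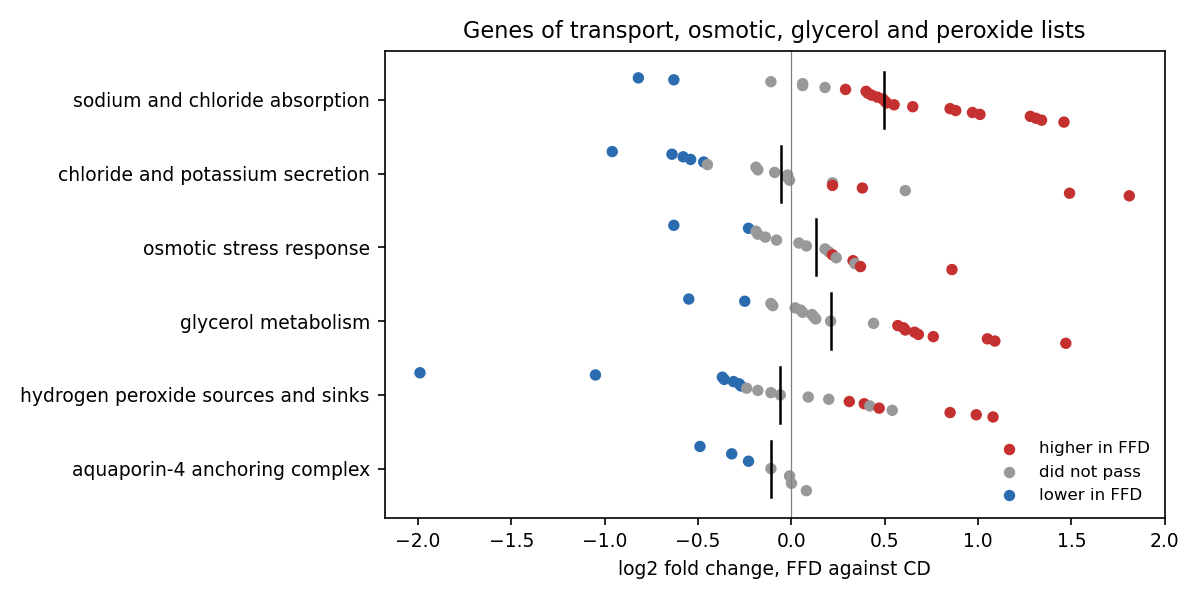
Log2 fold change in FFD against CD of each tested gene (points) of the 6 lists, colored by whether it was higher, lower or did not pass at an adjusted p of 0.05, with the list median as a vertical line. Sodium and chloride absorption has 18 higher and 2 lower of 24 genes and a median of 0.50, whereas chloride and potassium secretion has 4 higher and 5 lower of 18 and a median of -0.06. Of all genes tested, 18.2% were higher and 18.6% lower.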

How the data were processed

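RNA of colonic epithelial cells, released with EDTA and purified on Percoll, was sequenced as poly(A) libraries. The authors aligned single-end reads to GRCm38 and deposited raw counts per gene. Annotation release, strand and multi-mapped read handling were not given in the sources used here. FastQC, R 3.5.1 and DESeq2 1.22.2 are listed by the submitters' processing notes. Counts of 5 CD and 6 FFD mice, grouped by their labels, were used as deposited. Genes were kept by filterByExpr (minimum count 10, minimum total 15; 15044 of 52550 genes), scaled by TMM and tested for diet alone with the edgeR quasi-likelihood test (edgeR 4.0.16, R 4.3.3) and Benjamini-Hochberg adjustment over all genes tested, at 0.05. CPM are per 1000000 TMM-scaled counts. The standard error is that of the fitted log2 fold change, and 95% intervals use 9 degrees of freedom. Likeness and the ratios within a mouse used log2 CPM with a prior count of 2. Exon lengths come from GENCODE M21. Nothing says which mice shared a cage, so p-values measure the spread between these mice. The members and gene lists were chosen with earlier results of these data known. From each list, up to 4 genes past the threshold with the smallest p were named, with every gene past it in the minority direction; the single marker genes, Dag1, Pdp1, Kcne3, Slc12a2 and Cftr were named after their values were seen. Alternatives were DESeq2 1.42.0, limma 3.58.1 with voom, other size factors and filters, a replicate block and each mouse left out. Scripts were tested on simulated data.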

Additional observations from a re-analysis of the deposited data

How the results depend on the processing

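The count of genes called was 5532 and lay between 3782 (replicate block) and 6499 (totals without TMM), and between 4264 and 6079 with 1 mouse left out. Aqp1 and Aqp4 kept their direction and passed under all 21 alternatives each, with log2 fold changes of -1.48 to -1.03 (adjusted p 0.0041 to 0.038) and 0.62 to 0.88 (1.1e-04 to 0.022). With 1 mouse left out they were -1.48 to -1.03 and 0.70 to 0.88. Two-sided exact permutation tests gave p = 0.019, 0.013, 0.97 and 0.056 for Aqp1, Aqp4, Aqp8 and Aqp11, not adjusted. Aqp8 changed sign without passing, at 0.018 (DESeq2), 0.0095 (RLE), 0.014 (TMMwsp) and 0.039 (replicate block), and from -0.19 to 0.16 with 1 mouse left out. Aqp11 passed at -0.40 (adjusted p = 0.031) without TMM and lay between -0.29 and -0.17 with 1 mouse left out. Osmotic genes numbered 1 higher and 4 lower without TMM, 2 and 0 under the block, and 2 to 5 higher and 0 to 2 lower with 1 mouse left out. Lower glycerol genes numbered 1 with DESeq2, RLE, TMMwsp or no filter, and 1 to 2 with 1 mouse left out. Lower anchoring genes numbered 1 with RLE, TMMwsp, no filter or voom, 0 under the block, and 0 to 2 with 1 mouse left out. With the length of the longest coding transcript, chosen after seeing the data, Aqp1 was 3.4 times Aqp11 in CD and 1.75 times in FFD, instead of 8.56 and 4.41. Of the list genes named, Gucy2c, Txn1, Lrrc8a, Pnpla6, Akr1b3, Stk39, Dtnb, Utrn and Dmd lost their call under the replicate block, Gucy2c, Txn1, Pnpla6, Stk39, Dtnb, Dmd and Gpd1l without a filter, Dmd and Gpd1l with DESeq2, Dmd, Gpd1l and Utrn with RLE and TMMwsp, and Dmd and Utrn with voom. The cause of these shifts was not tested. Same-numbered mice of the diets did not deviate together (r from -0.283 to 0.229 over 5 pairs), so the numbers were not taken as pairs. Under the replicate block Aqp1 was -1.15, Aqp4 0.80 and Aqp11 -0.30, with no call of a member changed.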
